A study of Mus musculus with 67 samples.

Results

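Chromosomes 16, 17, 18 and 19, the 4 shortest numbered autosomes of the mouse, were followed in single cells of embryos treated with an inhibitor of DNA replication. They were chosen by name, as all bins of those chromosomes in both deposited tables, and comprise 1710 of 13103 bins (487, 472, 449 and 302 on chromosomes 16 to 19). Summarised as 1-Mb windows they make up 332 of the 2397 windows on the 19 autosomes. They carry 679, 1059, 510 and 705 protein-coding genes in RefSeq's GRCm38.p6 annotation, which is not the build of the data (mm9) and was used here for these counts alone.

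The cells were blastomeres of 8-cell BDF1 embryos, a hybrid between inbred mouse strains, cultured in vitro in CZB medium. During the 4-cell stage the embryos received either the solvent DMSO without drug or aphidicolin at 75 ng/ml. The DMSO group held 20 cells from 3 embryos, with 4 cells of DMSO 1 and 8 cells each of DMSO 2 and DMSO 3. The Aphidicolin group held 47 cells from 6 embryos, of which 5 were represented by 8 cells and 1 by 7 cells. Blastomeres were isolated by micromanipulation in medium with cytochalasin B, and their DNA was amplified and sequenced at low depth (scRepli-seq), so that read density along a chromosome reports relative DNA copy number. Embryos are named by treatment and number and cells by library number, and the embryo was the replicate throughout.

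Aphidicolin blocks the replicative DNA polymerases. Cells that enter mitosis with DNA still unreplicated can break chromosomes at such places or pass whole chromosomes unequally to their daughters. Mouse autosomes carry the centromere at the proximal end, where coordinates start, so that a chromosome has in effect a single long arm. A segment that reaches the distal end without the proximal end therefore holds no centromere. An unequal division is known to leave a gain in a daughter cell and the opposite loss in its sister.

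Reads per cell lay between 0.751 and 2.88 M, with a median of 2.30 M in DMSO and 2.05 M in Aphidicolin cells. The embryo mean depth was lower in Aphidicolin (1.99 ± 0.0964 M, SD, n = 6) than in DMSO (2.25 ± 0.117 M, SD, n = 3; exact two-sided permutation p = 0.0238). Window noise after removal of the common profile was 0.121 ± 0.00855 and 0.129 ± 0.00883 on the log2 scale (exact permutation p = 0.238). With 791 reads in the median window, counting alone gave a log2 error of 0.05. The slope of a cell on the pattern common to all cells was 0.811 ± 0.289 in Aphidicolin and 1.22 ± 0.0995 in DMSO embryos (exact permutation p = 0.0595). The embryo median of chromosome X was 0.987 copies in Aphidicolin and 1.68 in DMSO (exact permutation p = 0.0119), so the X copy number and the treatment cannot be told apart. The part of depth, profile and X in the results was not tested.

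**Figure D1:**
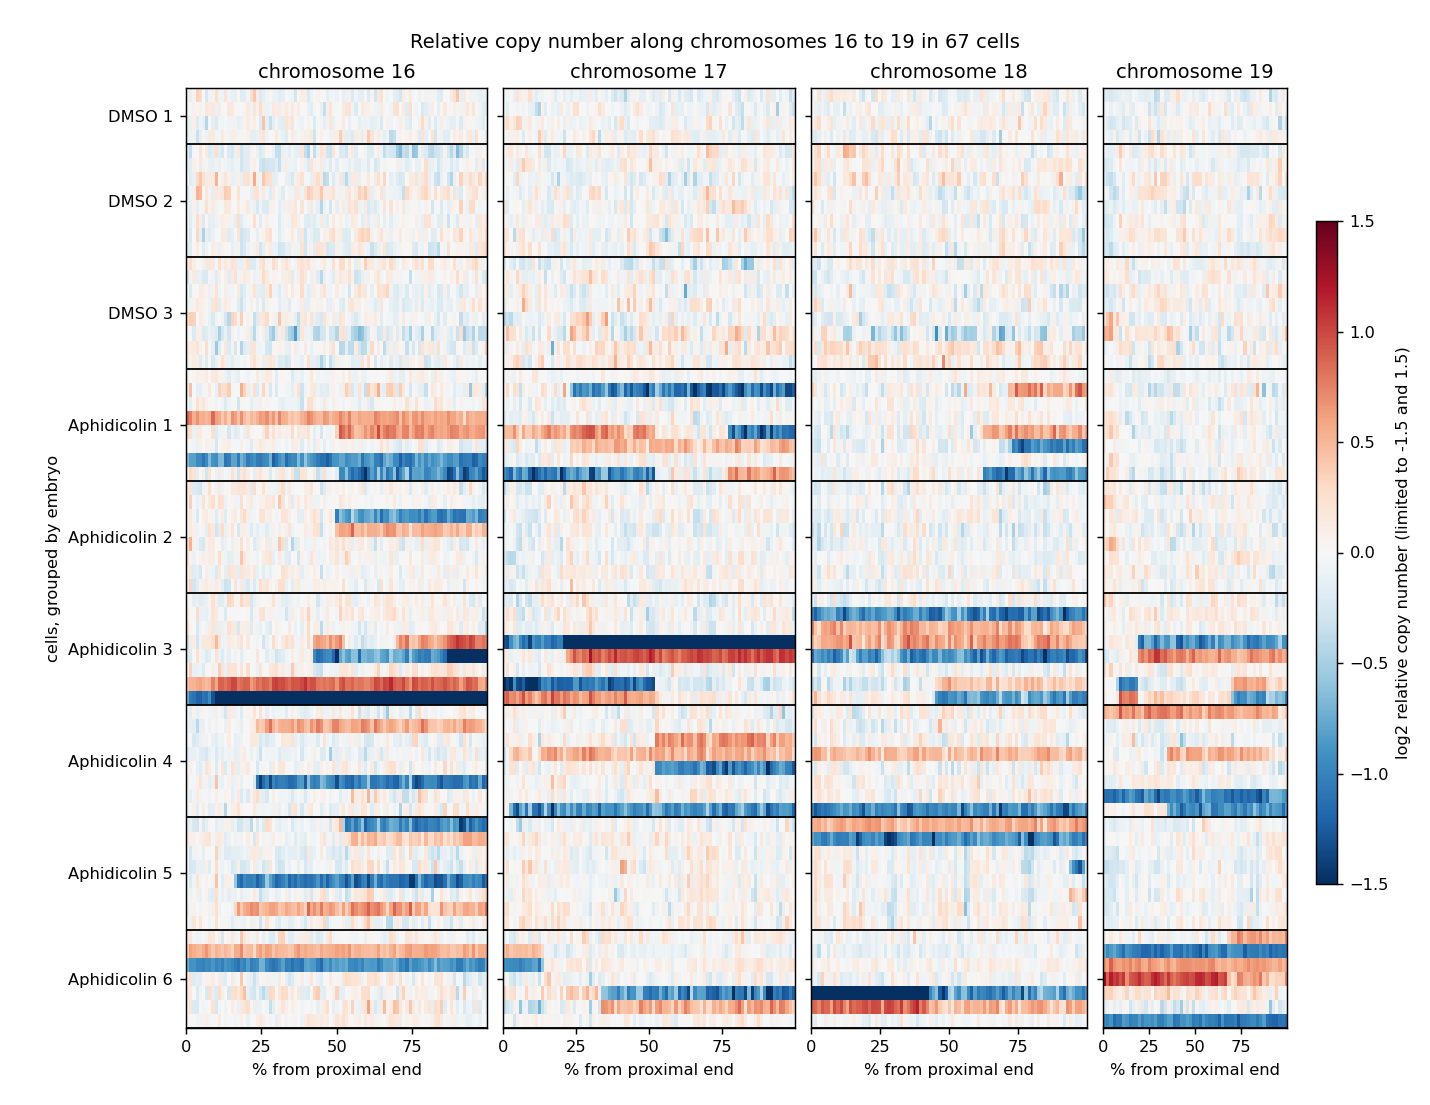
Log2 relative copy number after removal of the common profile, for each cell (rows, grouped by embryo, black lines between embryos) along chromosomes 16 to 19 (columns, percent of the length from the proximal end); red is gain, blue is loss. DMSO rows are pale throughout, and the 33 Aphidicolin cells with calls carry long uniform red or blue blocks, mostly as a red and a blue block of the same extent in the same embryo.

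Gains and losses on chromosomes 16 to 19 were seen in most Aphidicolin cells and in few DMSO cells. An event here is a stretch of at least 10 Mb called as a gain (log2 above 0.32) or a loss (log2 below -0.42). It is whole where calls of 1 sign cover at least 90% of the chromosome and partial otherwise. Of 47 Aphidicolin cells, 33 had an event on at least 1 of the 4 chromosomes (70.2%, exact Clopper-Pearson interval 55.1 to 82.7%). Of 20 DMSO cells, 2 did (10%, 1.23 to 31.7%). These intervals cover counting error only and take the cells of an embryo as independent.

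By embryo, the share of cells with any event was 75, 25, 75, 100, 50 and 100% in Aphidicolin 1 to 6 and 0, 0 and 25% in DMSO 1 to 3. Aphidicolin 2 was level with DMSO 3, and the other 5 Aphidicolin embryos lay above all DMSO embryos. The means were 70.8 ± 29.2% (SD, n = 6) and 8.33 ± 14.4% (SD, n = 3). The difference gave an exact two-sided permutation p of 0.0476, which was 0.107 after Benjamini-Hochberg adjustment over 9 measures. None of the 9 measures passed an adjusted threshold of 0.05, and the smallest unadjusted p that 3 against 6 embryos allow is 0.0119. The direction depended on removing the common profile: with the profile left in, the difference was -14.6 percentage points (exact permutation p = 0.393).

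Whole and partial events were both common in Aphidicolin. A whole-chromosome event was present in 20 Aphidicolin cells (42.6%) and in 0 of 20 DMSO cells, which by the same exact interval allows a share of up to 16.8%. A partial event was present in 25 Aphidicolin cells (53.2%) and in 2 DMSO cells. Among the 47 Aphidicolin cells, 8 had whole events without partial ones, 13 had partial events without whole ones, 12 had both and 14 had neither.

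The share of cells with a whole event was 25, 0, 75, 50, 25 and 85.7% in Aphidicolin 1 to 6. The mean was 43.5 ± 32.8% (SD, n = 6) against 0 in each DMSO embryo (exact permutation p = 0.0833, adjusted 0.143). The difference in whole events was 41.4 percentage points with the common profile left in (exact permutation p = 0.0833, adjusted 0.375). The share with a partial event was 50, 25, 50, 75, 50 and 71.4%. Its mean was 53.6 ± 18.1% against 8.33 ± 14.4% (exact permutation p = 0.0238, adjusted 0.107), and it ranged less between embryos than the share with whole events. With the common profile left in, the difference in partial events was -25.6 percentage points. Aphidicolin 2 had partial events alone, while whole events reached their highest share in Aphidicolin 6.

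**Figure D2:**
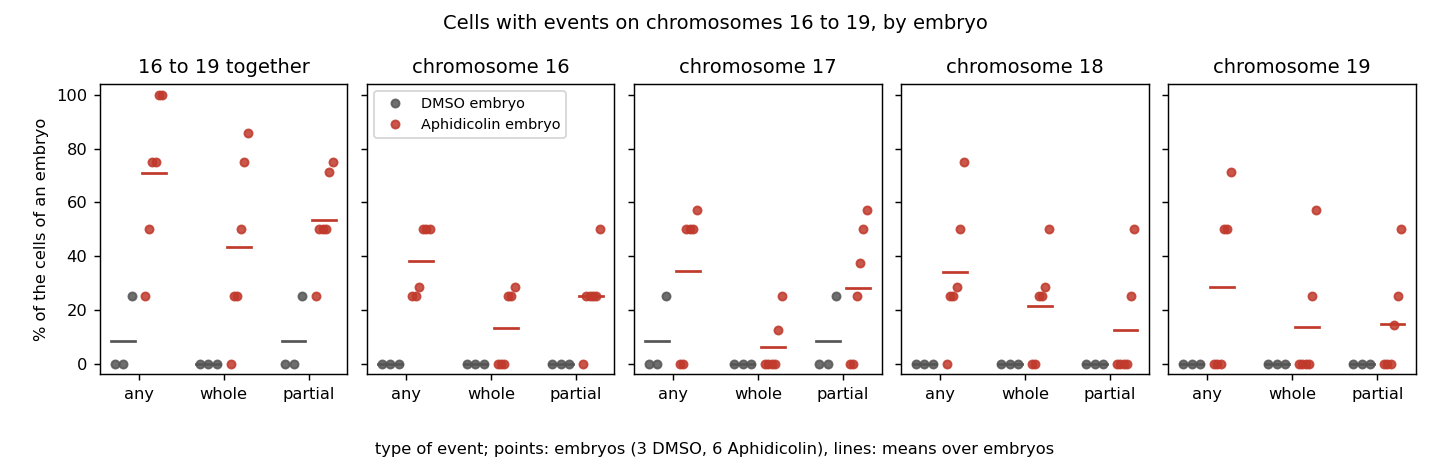
Percent of the cells of each embryo with any, a whole or a partial event (y axis), for chromosomes 16 to 19 together and for each chromosome; points are embryos (3 DMSO, 6 Aphidicolin) and lines their means. Chromosome 16 has calls in all 6 Aphidicolin embryos and in no DMSO embryo, whereas on chromosome 17 DMSO 3 reaches 25%.

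In the 4 Aphidicolin cells 46, 47, 49 and 50, all of Aphidicolin 3, each of the 4 chromosomes was altered. The other Aphidicolin cells had 0 (14 cells), 1 (17 cells), 2 (6 cells) or 3 (6 cells) of the 4 altered. Events numbered 14, 2, 24, 12, 6 and 16 in Aphidicolin 1 to 6, so that Aphidicolin 3 held 32.4% of the 74. The length gained or lost was 25.6, 3.61, 42.9, 29.5, 15.9 and 32.8% of the 4 chromosomes in Aphidicolin 1 to 6. In DMSO it was 0, 0 and 0.828%, below every Aphidicolin embryo. The means were 25.1 ± 13.7% and 0.276 ± 0.478% (exact permutation p = 0.0357, adjusted 0.107). This difference was 14.1 percentage points with the common profile left in, in place of 24.8.

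Chromosome 16 was altered in every Aphidicolin embryo. Events were called in 18 of 47 Aphidicolin cells (38.3%), 6 of them whole and 12 partial, and in no DMSO cell. The embryo shares ran from 25 to 50% with a mean of 38.1 ± 13.1% (SD, n = 6). The exact permutation p was 0.0119, or 0.0754 adjusted over the 19 autosomes. On no autosome did the adjusted p fall below 0.05 (percent of autosomes called 0), whereas 6 had an unadjusted p below 0.05. Chromosome 16 was the only one of the 4 whose Aphidicolin embryos all lay above all DMSO embryos, which held for 7 of the 19 autosomes (36.8%). Its difference was -24.1 percentage points with the common profile left in, and with a minimum event length of 5 Mb its adjusted p was 0.0452.

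Chromosome 17 was altered mostly in part. Of 16 Aphidicolin cells with calls (34%), 3 had the whole chromosome altered and 13 a part of it. The embryo mean was 34.5 ± 26.9% against 8.33 ± 14.4% in DMSO (exact permutation p = 0.202, adjusted 0.226), with 4 of 6 Aphidicolin embryos affected. The difference was -15.5 percentage points with the profile left in. Both DMSO calls on the 4 chromosomes were on chromosome 17 and in DMSO 3. Cell 19 had a loss at chr17:72000001-82000000 (log2 -0.46, 1.45 copies) and cell 23 a gain at chr17:24000001-36000000 (log2 0.34, 2.53 copies). Both were 10 to 12 Mb long, reached neither end of the chromosome, had no opposite event in the embryo and lay closer to the calling limits than any Aphidicolin call.

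Chromosome 18 was altered mostly as a whole. Of 16 Aphidicolin cells with calls (34%), 10 had the whole chromosome gained or lost, 5 each way, and 6 had a part altered. Whole alterations thus made up 62.5% of the altered copies of chromosome 18, against 46.2% for chromosome 19, 33.3% for chromosome 16 and 18.8% for chromosome 17. The embryo mean was 33.9 ± 25.6% with 0 in DMSO (exact permutation p = 0.0833, adjusted 0.122), and 5 of 6 Aphidicolin embryos were affected. In Aphidicolin 3, the most affected embryo, 6 of 8 cells had an altered chromosome 18. With the profile left in, chromosome 18 differed by 4.76 percentage points.

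Chromosome 19, the shortest, was altered in 13 Aphidicolin cells (27.7%), 6 as a whole and 7 in part. Its calls came from 3 embryos, with 50% of cells in Aphidicolin 3, 50% in Aphidicolin 4 and 71.4% in Aphidicolin 6, and 0 in the other 3 Aphidicolin embryos and all DMSO embryos. The mean of 28.6 ± 32.3% gave an exact permutation p of 0.393 (adjusted 0.415). The 4 chromosomes were not tested against each other.

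Gains and losses were equal in number. In Aphidicolin 37 gains and 37 losses were called, covering 1934 and 1951 Mb. Among the 25 whole-chromosome alterations 12 were gains and 13 losses, and among the 44 partial events 23 were gains and 21 losses. A whole alteration with a step inside it counts as more than 1 event, so the 25 make up 30 of the 74 events. The gained part of the altered length was 50.1, 50, 48.4, 50, 49.9 and 51.2% in Aphidicolin 1 to 6. Gained minus lost length was -0.0896 ± 0.701% of the 4 chromosomes in Aphidicolin and 0.0251 ± 0.0435% in DMSO (exact permutation p = 0.714, adjusted 0.75). The difference of -0.115 percentage points turned to 5.17 with the common profile left in, to 0.138 without Aphidicolin 3 and to 0.654 without the 1 cell under 1 M reads. Chromosome by chromosome the gained part was 49.3, 49, 50 and 51.6%.

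Most events lay near 3 copies or near 1 copy. Of the 37 gains, 33 had log2 values from 0.37 to 0.74 with a median of 0.54, or 2.92 copies, and 4, called high gains here (above 0.81), had log2 values from 0.85 to 0.99, or 3.6 to 3.96 copies. Of the 37 losses, 33 had log2 values from -1.20 to -0.78 with a median of -0.96, or 1.03 copies, and 4 were near 0. Copies are counted with the autosomal median taken as 2. The uncalled Aphidicolin segments nearest to the limits had log2 values of 0.23 and -0.41. The called ones nearest to them were at 0.37 and -0.78.

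Among whole events the highest gain was on chromosome 19 in cell 70 of Aphidicolin 6 (log2 0.99 over the proximal 39 Mb). Those of the other chromosomes were cell 49 on chromosome 16 (log2 0.85), cell 72 on chromosome 18 (0.90 over the proximal 37 Mb) and cell 54 on chromosome 17 (0.50). The deepest whole loss on chromosome 19 was in cell 68 (log2 -1.06), and on chromosomes 16 to 18 it was a near-zero segment. The highest partial gains were in cell 47 on chromosome 17 (log2 0.96), cell 46 on chromosome 16 (0.74), cell 50 on chromosome 19 (0.72) and cell 28 on chromosome 18 (0.59). The deepest partial losses other than near-zero ones were at -1.20 in cell 49 on chromosome 17, -1.07 in cell 63 on chromosome 16, -1.02 in cell 32 on chromosome 18 and -0.93 in cell 49 on chromosome 19.

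Near-zero segments, with a log2 value below -3, made up 4 of the 74 Aphidicolin events on these chromosomes and came from 2 embryos. They were in 4 Aphidicolin cells, with 2 on chromosome 16, 1 on chromosome 17, 1 on chromosome 18 and none on chromosome 19. No DMSO cell had one, which by the exact interval allows a share of up to 16.8% of cells. The embryo shares were 37.5% in Aphidicolin 3, 14.3% in Aphidicolin 6 and 0 elsewhere (mean 8.63 ± 15.3%, exact permutation p = 0.75). Without Aphidicolin 3 the mean difference was 2.86 percentage points. On autosomes 1 to 15, 23 of 391 Aphidicolin events were near 0, in 15 cells. There every Aphidicolin embryo had such segments, in 12.5 to 62.5% of its cells.

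The longest near-zero segment on chromosomes 16 to 19 ran over chr16:13000001-98000000 in cell 50. Its 85 windows held 413 reads together, while the median window of that cell held 658 reads. The remaining 10 Mb at the proximal end of this chromosome were at 0.92 copies. Cell 46 had 134 reads in the 72 windows of chr17:23000001-95000000, with 0.984 copies proximal to it. Cell 71 had 148 reads in the 36 windows of chr18:3000001-39000000, and 1.07 copies distal to it. In cell 47 the 13 windows of chr16:85000001-98000000 held 147 reads, next to a stretch of 42 Mb at 1.13 copies. Each near-zero segment thus adjoined a segment of the same chromosome at about 1 copy.

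Over each near-zero segment another cell of the same embryo was close to 4 copies. Cell 49 was at 3.64 copies over the segment lost in cell 50, and cell 47 at 3.89 copies over that lost in cell 46. Cell 72 was at 3.74 copies over the segment lost in cell 71, and cell 46 at 3.77 copies over that lost in cell 47. Over this last segment the 6 remaining cells ranged from log2 -7.42 to 0.82, cell 50 being near 0 too. The gain of cell 46 was called over a longer stretch of 29 Mb at 3.33 copies, so it is not among the 4 high gains. The fourth high gain, of cell 70 on chromosome 19, had no near-zero partner among the 7 cells of Aphidicolin 6, where chromosome 19 summed to 15.2 copies against the 14 expected for 7 cells with 2 copies each. Its 2 opposite losses, in cells 68 and 73, left a single copy each. Across these 4 chromosomes and the 6 Aphidicolin embryos, the embryo mean lay between 1.95 and 2.17 copies, the highest being this value of chromosome 19. In DMSO it lay between 1.94 and 2.05.

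Most events were mirrored in the same embryo, by a call of the other sign in another cell that overlapped by at least 50% of both. Such an opposite event existed for 66 of 74 events (89.2%) on chromosomes 16 to 19 and for 87.2% on autosomes 1 to 15. All 18 events of chromosome 18 had one, as did 18 of 19 on chromosome 17, 14 of 16 on chromosome 19 and 16 of 21 on chromosome 16. The 8 without one were in Aphidicolin 3 (6 events) and Aphidicolin 6 (2 events). The 47 opposite pairs of events came from 30 pairs of cells, and 34 of the 47 had both ends within 1 Mb of each other. Of the 44 partial events, 39 (88.6%) had an end-matched partner, against 78.4% of 287 on autosomes 1 to 15. For these shares matched ends lay within 2 Mb, a limit that gave the same 34 pairs on chromosomes 16 to 19.

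In the 34 end-matched pairs the copies of both cells summed to a median of 3.94, with a range of 3.66 to 4.34 and an SD of 0.15. All 47 opposite pairs, end-matched or not, had the same median of 3.94 (3.61 to 4.96). Gains other than high ones had a median of 2.92 copies, and losses other than near-zero ones 1.03. Such a gain and loss sum to about as much in any 2 cells, so the sum does not show which cells are partners. On chromosome 16 the longest shared pairs were the whole chromosome in cells 30 and 33 (2.96 and 1.04 copies) and in cells 68 and 69 (2.85 and 1.05 copies). On chromosome 17 they were the whole chromosome in cells 54 and 58 (2.83 and 1.07 copies) and the distal 72 Mb in cells 47 and 46 (3.89 and 0.00408 copies). On chromosome 18 they were again the whole chromosome, in cells 54 and 58 (2.79 and 1.03 copies) and in cells 59 and 60 (2.92 and 1.05 copies). In Aphidicolin 3, cells 45 and 46 both gained chromosome 18 and cells 44 and 47 both lost it, so that its pairs cannot be assigned from this chromosome. On chromosome 19 the whole chromosome differed between cells 51 and 57 (3.01 and 0.974 copies) and between cell 69 and cells 68 and 73 (3.08 against 0.962 and 0.993 copies).

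Of the 30 pairs of cells, 8 had opposite events on at least 2 of the 4 chromosomes and the others on a single chromosome. Cells 49 and 50 had opposite events on all 4 chromosomes. Cells 31 and 34, 46 and 47, 54 and 58, and 68 and 69 did so on 3 of the 4. The direction was not fixed within a pair. Cell 31 gained the proximal 48 Mb of chromosome 17 and lost its distal 21 Mb, and cell 34 showed the reverse. Cell 49 gained chromosome 16 and lost the proximal 48 Mb of chromosome 17, and cell 50 showed the reverse.

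**Figure D3:**
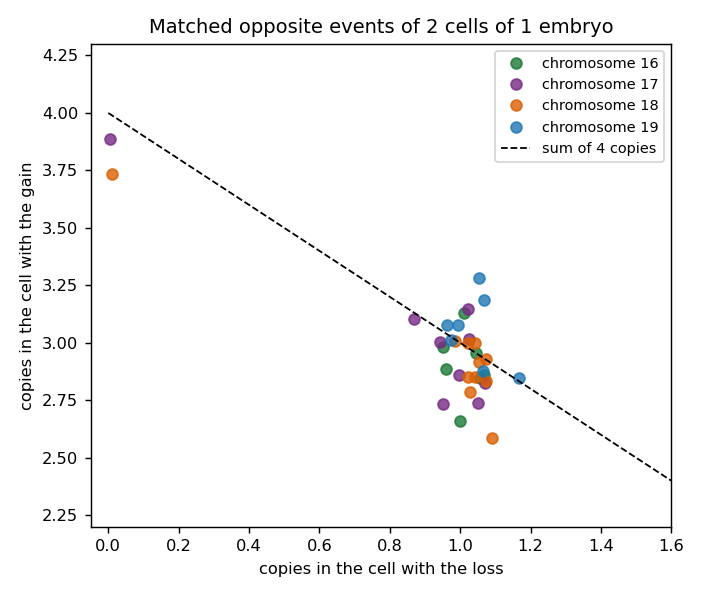
Copies in the cell with the gain (y axis) against copies in the cell with the loss (x axis) for the 34 end-matched opposite pairs, coloured by chromosome; the dashed line marks a sum of 4 copies. Most points cluster near 3 and 1 copies, and the 2 at the left edge are near-zero losses on chromosomes 17 and 18. A gain near 3 and a loss near 1 lie near the line whichever cells are paired.

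Partial events mostly ran to the distal end. Of the 44, 34 (77.3%) reached the distal end, 8 the proximal end and 2 neither end. On autosomes 1 to 15, 174 of 287 (60.6%) reached the distal end, 32 the proximal end and 81 neither. On chromosomes 16, 17, 18 and 19 the distal end was reached by 12 of 14, 9 of 15, 6 of 6 and 7 of 9 partial events. Chromosome 17 held 6 of the 8 events at the proximal end, and chromosome 16 both inner ones, in cells 46 and 47. The 44 partial events had a median length of 44.5 Mb, with a range of 10 to 80 Mb. A minimum length of 10 Mb leaves less room for inner events on a short chromosome, so these shares are not on equal terms.

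Breakpoints, the positions where the called level changes within a chromosome, numbered 50 in Aphidicolin: 16, 16, 8 and 10 on chromosomes 16 to 19. Positions have a resolution of the 1-Mb windows. Counted once per embryo they formed 26 sites, of which 22 were present in at least 2 cells of the embryo. The 4 sites in a single cell were all on chromosome 16 in Aphidicolin 3. With each chromosome cut into 3 equal parts, 7 sites were in the proximal, 13 in the middle and 6 in the distal part. No breakpoint could be placed in the outer 10 Mb, which takes room from the proximal and distal parts alone. These counts are therefore not on equal terms. By the common profile of all cells, the sites lay at a median percentile of 53 within their chromosome, with a range from 2.11 to 94.6.

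Breakpoints were joined into 1 position where each lay within 2 Mb of the next, and 6 positions held at least 3 Aphidicolin cells. On chromosome 16 the position at 50 to 54 Mb was broken in 7 cells of 4 embryos (Aphidicolin 1, 2, 3 and 5), close to the middle of the chromosome. This rests on the joining, since no stretch of 2 Mb there held more than 4 of the 7 cells, from 3 embryos. On chromosome 17 the position at 51 Mb was broken in 6 cells of 3 embryos (Aphidicolin 1, 3 and 4), with the same window boundary in all 6 cells. Also on chromosome 17, the position at 23 to 24 Mb was broken in 4 cells of 2 embryos (Aphidicolin 1 and 3), and the gain of DMSO cell 23 also began at 24 Mb. On chromosome 18 it was 39 to 42 Mb, in 4 cells of Aphidicolin 3 and 6, of which a stretch of 2 Mb held at most 3. The other 4 positions spanned at most 1 Mb.

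On chromosome 19 the position at 42 to 43 Mb was broken in 4 cells of 2 embryos (Aphidicolin 3 and 6). The other, at 14 Mb, was broken in 4 cells of Aphidicolin 3 alone, as opposite steps in the pairs 46 with 47 and 49 with 50. Cells of an embryo share ancestors, so the number of embryos, not of cells, counts here. The recurrence was not tested, and the genes at these positions were not analysed here.

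**Figure D4:**
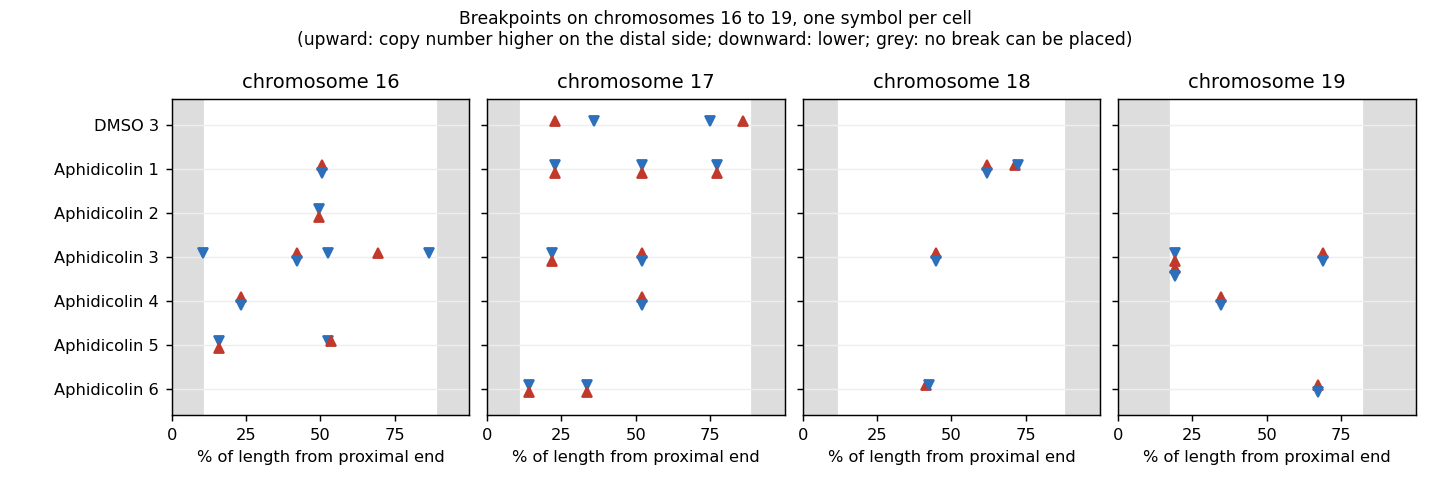
Breakpoints by embryo (rows) along chromosomes 16 to 19 (x axis, percent of the length from the proximal end), with 1 symbol per cell; upward red means higher and downward blue lower copy number on the distal side, and grey marks the outer 10 Mb where no breakpoint could be placed. Most symbols come as an upward and a downward one at the same place in the same embryo, and the positions near 50% of chromosomes 16 and 17 are broken in 4 and 3 Aphidicolin embryos.

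Breakpoints per cell and 100 Mb were 0.452, 0.0753, 0.678, 0.226, 0.151 and 0.344 in Aphidicolin 1 to 6, and 0, 0 and 0.151 in DMSO. Aphidicolin 2 lay below DMSO 3, and Aphidicolin 5 was level with it. The means were 0.321 ± 0.221 and 0.0502 ± 0.0870 (exact permutation p = 0.0952, adjusted 0.143), and the difference was -0.117 with the profile left in.

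Per unit of length, the event rates of chromosomes 16 to 19 lay within the range of the longer autosomes. In Aphidicolin cells chromosome 19 had 0.587 events per cell and 100 Mb, chromosome 16 had 0.470, chromosome 18 had 0.440 and chromosome 17 had 0.439. Among the 19 autosomes these rates ranked 2, 6, 9 and 10. Only chromosome 12 lay above chromosome 19, with 0.667, and chromosome 13 came next below it with 0.564. Chromosome 12 also had 0.297 events per cell and 100 Mb in DMSO, from losses in 7 of 20 cells. Its 8 whole alterations in Aphidicolin were counted as 18 events. By share of altered cells, which does not allow for length, chromosome 19 ranked 18. By breakpoints per length, chromosome 18 ranked last of the 19, with 0.196 per cell and 100 Mb.

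By embryo, events per cell and 100 Mb on chromosomes 16 to 19 were 0.527, 0.0753, 0.904, 0.452, 0.226 and 0.688 in Aphidicolin 1 to 6. In DMSO they were 0, 0 and 0.0753, so that DMSO 3 was level with Aphidicolin 2. The means were 0.479 ± 0.301 and 0.0251 ± 0.0435 (exact permutation p = 0.0476, adjusted 0.107). The difference was 0.274 with the profile left in, in place of 0.454.

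Within the 6 Aphidicolin embryos, chromosomes 16 to 19 were set against autosomes 1 to 15 of the same cells. Events per cell and 100 Mb were 0.479 ± 0.301 against 0.404 ± 0.143, a difference of 0.0746 ± 0.247 (SD, n = 6; exact sign-flip permutation p = 0.5, adjusted 0.625). It ranged from 0.0383 without Aphidicolin 3 to 0.147 without Aphidicolin 2, and was 0.0199 with a minimum event length of 5 Mb. The altered length was 25.1 ± 13.7% against 25.9 ± 9.10% (exact permutation p = 0.938), and that difference changed sign with the embryo left out, from -4.32 to 2.75 percentage points. Whole alterations made up 33.4 ± 22.3% of altered chromosomes against 23.3 ± 3.35%, higher on the short chromosomes in 4 of 6 embryos (exact permutation p = 0.375, adjusted 0.625). The difference of 10.1 percentage points was 4.02 without Aphidicolin 6, 6.69 without Aphidicolin 4 and 17.7 without Aphidicolin 2. Pooled over cells these shares were 25 of 63 (39.7%) and 73 of 310 (23.5%). No breakpoint could be placed in the outer 10 Mb, a larger part of a short chromosome, and an alteration ending there can count as whole. The whole shares are therefore not on equal terms. Breakpoints per cell and 100 Mb were 0.321 ± 0.221 against 0.388 ± 0.125 (exact permutation p = 0.406), a difference of -0.0666. It was -0.188 with the 5-Mb minimum, -0.0179 with a 15-Mb minimum, between -0.119 and -0.0260 with an embryo left out, and -0.0306 when set against the length in which a breakpoint could be placed. That length is 75.9% of chromosomes 16 to 19 and 85.5% of autosomes 1 to 15.

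The gained share of the altered length was 49.9 ± 0.899% on chromosomes 16 to 19 and 48.9 ± 0.81% on autosomes 1 to 15. The difference of 1.02 ± 0.372 percentage points had the same sign in 6 of 6 embryos (exact permutation p = 0.0312, the smallest that 6 embryos allow, adjusted 0.156). Among events with an opposite event in the embryo it turned to -1.21 percentage points. None of these 5 comparisons passed the adjusted threshold.

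**Figure D5:**
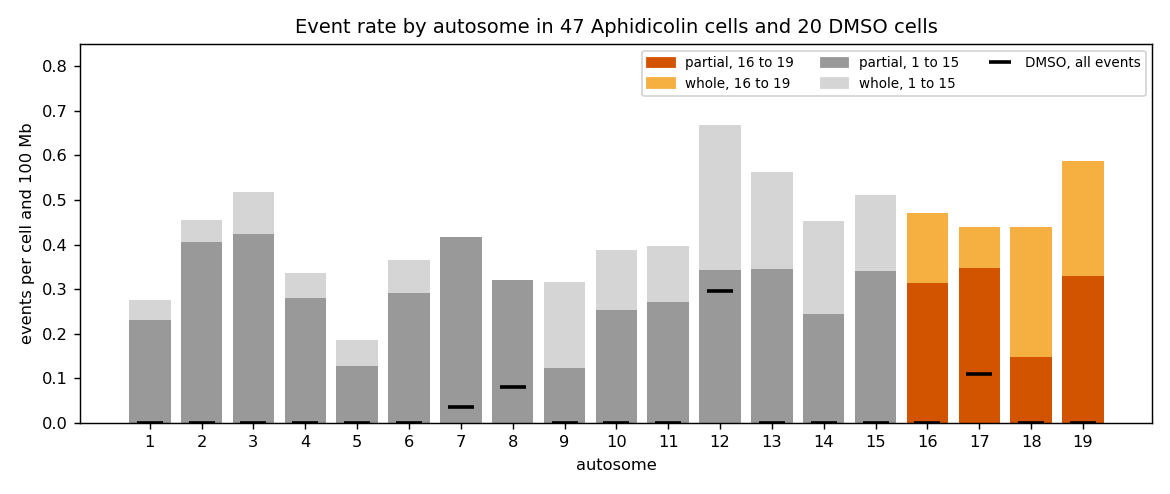
Events per cell and 100 Mb (y axis) on each of the 19 autosomes (x axis) in 47 Aphidicolin cells, stacked as partial and whole events, with chromosomes 16 to 19 in orange; black marks give the rate in 20 DMSO cells. Chromosome 19 has 0.587 and chromosomes 16, 17 and 18 have between 0.439 and 0.470, inside the range of the longer autosomes, and whole events take the largest part on chromosome 18. Only chromosome 12 lies above chromosome 19, and its DMSO rate is 0.297.

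Deviations were also read window by window without calling events. The mean absolute log2 deviation from 2 copies on chromosomes 16 to 19 was 0.279, 0.135, 0.876, 0.2995, 0.220 and 0.437 in Aphidicolin 1 to 6, and 0.111, 0.128 and 0.145 in DMSO. Aphidicolin 2 lay within the DMSO range and the other 5 above it. The means were 0.374 ± 0.265 and 0.128 ± 0.0169 (exact permutation p = 0.143, adjusted 0.184). Without Aphidicolin 3, which holds 3 of the 4 near-zero segments, the difference was 0.146 in place of 0.246, and with the profile left in it was 0.128.

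A limma fit over all 2397 windows found 128 windows (5.34%) with a higher absolute deviation in Aphidicolin at an adjusted p below 0.05 and none with a lower one. On chromosomes 16 to 19 it called 7 of 332 windows (2.11%), all 7 on chromosome 16, where 95 windows were tested. The median log2 difference was 1.51 on chromosome 16, 1.13 on chromosome 17, 1.10 on chromosome 18 and 0.91 on chromosome 19, against 1.12 over all windows. The largest was at chr16:74000001-75000000, with 2.76 ± 0.71 (SE; limma adjusted p = 0.0357). The smallest was at chr16:9000001-10000000, with -0.08 ± 0.66 (limma adjusted p = 0.926). At chr16:74000001-75000000 the DMSO mean of the log2 deviation was -4.05, against -2.90 and -3.49 in the windows beside it. The Aphidicolin mean was -1.29, against -1.25 and -1.24. This window thus stood out by a low DMSO value and not by a higher Aphidicolin one.

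On the other chromosomes the largest differences were 2.07 at chr17:84000001-85000000, 2.51 at chr18:17000001-18000000 and 1.53 at chr19:51000001-52000000, with limma adjusted p of 0.0826, 0.0509 and 0.145. The smallest were 0.35 at chr17:22000001-23000000, 0.27 at chr18:22000001-23000000 and 0.13 at chr19:4000001-5000000. At chr18:17000001-18000000 too the DMSO mean was low, -4.39 against -3.05 and -2.88 in the windows beside it. The Aphidicolin means were -1.88, -1.96 and -1.88. Windows of a chromosome share events and are not independent. The count of 7 was 0 without any one of the 3 DMSO embryos, without Aphidicolin 5 or without Aphidicolin 6, 3 without Aphidicolin 3 and 16 without Aphidicolin 4. It was 3 without the 1 cell under 1 M reads, 0 with a pseudocount of 0.1 and 0 with the common profile left in.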

How the data were processed

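The deposited tables hold log2 values relative to the median of each cell, set by the authors. The build was mm9, per the submitters' processing notes, with aligner and read filters not given in the sources used here. Embryo names come from the deposited metadata, which also hold collection columns of other kinds, and a noise score and pass marks per cell, which the authors gave as a score without a stated scale. All 67 cells were marked as passing.

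Bins at steps of 200 kb behaved as overlapping 1-Mb windows. Values turned back into whole reads for 100% of values within 0.01 reads, and a bin without reads was set to 0.5 reads. Medians over 1-Mb windows with at least 3 bins were used. A profile common to both treatments was removed from each cell by Huber regression. Change points were placed by penalised least squares (penalty factor 4, values limited at -4, minimum 10 Mb), and neighbours within 0.35 were merged. Known whole, 15-Mb, 30-Mb or near-zero events were put into DMSO profiles of chromosomes 16 to 19 (80 of each of 7 kinds, 332 windows). They were added after removal of the common profile, to 1 randomly drawn chromosome, with partial ones at the distal end. Of each kind 100% were called and at least 98.8% given the right type. Without an added event, 1.25% of 80 profiles had a call on the drawn chromosome. On chromosomes 16 to 19 together, 10% of the DMSO cells had one. The 20 DMSO profiles were used repeatedly, so the 80 are not independent. Profile removal, inner events and events under 15 Mb were not tried in this way.

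Embryo means were compared by exact two-sided permutation over 84 splits, and within Aphidicolin over 64 sign flips, with Benjamini-Hochberg adjustment over 9 measures, 19 autosomes or 5 comparisons. Windows were tested with limma 3.58.1 in R 4.3.3, on log2 of the embryo mean absolute deviation. Other steps used Python 3.11.15 with numpy 2.4.6 and scipy 1.17.1. The labels name embryos, not litters. The chromosomes and measures were chosen with earlier results of these data known. Named by rule were near-zero segments, calls in DMSO cells, the highest gain and deepest loss of each kind, the 2 longest opposite pairs per chromosome, positions broken in at least 3 Aphidicolin cells, cells altered on all 4 chromosomes, and the windows with the largest and smallest difference.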

Additional observations from a re-analysis of the deposited data

How the results depend on the processing

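No paired analysis was possible because no number ties a DMSO embryo to an Aphidicolin embryo. Without removal of the common profile, differences between Aphidicolin and DMSO were -14.6 points for cells with any event, -25.6 for partial events, -0.117 for breakpoints per cell and 100 Mb, 5.17 for gained minus lost length, -24.1 on chromosome 16 and -15.5 on chromosome 17, while altered length on chromosomes 16 to 19 minus 1 to 15 was 0.225, and limma called 5 windows, 0 of them on chromosomes 16 to 19. The cause was not tested. With the profile from DMSO cells alone limma called 216 windows (15 on chromosomes 16 to 19), and with a pseudocount of 0.1 it called 0 (0). Without the cell under 1 M reads, a choice made after seeing the data, 3 windows on chromosomes 16 to 19 were called, and gained minus lost length differed by 0.654. Keeping only events with an opposite event, also chosen after seeing the data, turned the gained share of chromosomes 16 to 19 against 1 to 15 to -1.21. With a minimum event length of 5 Mb, 5 of 19 autosomes passed instead of 0. Leaving out 1 embryo at a time gave 0 to 318 windows (0 to 16 on chromosomes 16 to 19), a gained minus lost difference of -0.296 to 0.138, and a difference in altered length between chromosomes 16 to 19 and 1 to 15 of -4.32 to 2.75. The number of embryos, 3 of them DMSO, limits every p-value, and the 10-Mb minimum leaves shorter events uncounted.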
